A study of Mus musculus with 10 samples.

Results

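The comparison of OVA-induced with saline mice covered lung DNA from 6 of the 10 mice of the series, 3 given OVA and 3 given saline. All were female BALB/c mice, 8 weeks old when obtained per the methods. OVA mice were sensitised to ovalbumin, an egg-white protein, by 2 intraperitoneal injections with alum, and from day 12 were challenged with it through the nose on 4 days. Saline mice were injected with saline alone. The methods state that sensitised groups received an oral vehicle or a plant extract, and the labels do not say whether the 3 OVA mice analysed here received the vehicle. The other 4 mice, labelled Herb, entered no test. The paper describes its herbal treatment group of 4 mice as treated with the plant extract, and its methods count the treated mice among those sensitised to ovalbumin. The assay, Methyl-seq, enriches chosen regions with probes and treats them with bisulfite, which converts unmethylated cytosines, so that each read of a CpG is a methylated or an unmethylated call. Calls were summed in overlapping windows 1000 bp long that start every 500 bp, and the windows kept held at least 20 calls in all 6 mice. These were 424174 of 446336 windows, and 18711 genes had a value at the promoter and 14081 over the gene body. A promoter was defined as the windows with a midpoint within 1000 bp of a RefSeq transcript start, and a gene body as at least 3 windows inside the transcripts and farther from every start.

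DNA methylation in mammals is found mainly at CpG dinucleotides. Promoters rich in CpGs are usually unmethylated in every cell type, whereas promoters and enhancers poor in CpGs are often unmethylated in the cell types that use them and methylated in the others. Allergic airway inflammation, as raised by ovalbumin in mice, brings eosinophils, lymphocytes and other leukocytes into the lung under the control of T helper type 2 (Th2) cytokines. Whole lung mixes epithelial, endothelial, mesenchymal and blood-derived cells, so a change in the share of a cell type and a change of methylation within cells cannot be told apart in these data.

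Total calls over all deposited windows ranged from 306656737 to 369901350 in the saline mice and from 325597133 to 394389787 in the OVA mice. Windows overlap by 500 bp, so these totals count many calls more than once. The same holds for calls given for a promoter with several windows. Marker promoters did not settle the lung label. In saline mice the median was 7.89% over 22 lung epithelial regulators, close to the 9.5% of all promoters, and 57.2% over 17 genes of other tissues. Nkx2-1, a regulator of lung epithelium, stood at 2.33%, but so low a level was also found at Pdx1 of pancreas (3.54%), and the lung genes Sftpc, Sftpa1 and Cldn18 stood at 67.6%, 63.8% and 70.7%. No 2 libraries of a group held the same calls. The labels do not state that the mice were housed or processed separately, so p-values measure the spread between these samples.

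Mean window methylation was slightly higher in OVA mice. It was 51.58%, 51.03% and 51.31% in the saline mice and 51.98%, 52.71% and 52.89% in the OVA mice, with means of 51.31% ± 0.279 and 52.53% ± 0.48 (SD, n = 3 each). The groups did not overlap, and the exact two-sided permutation test gave p = 0.1, the smallest value that 3 against 3 allows. The difference of 1.22 percentage points became 0.275 points, with overlapping groups and an exact p of 0.7, when all calls of a mouse were pooled, a mean in which CpG-rich windows weigh more.

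The shift was smallest at transcript starts. Between 500 bp and 0 bp before the nearest start, mean methylation was 15.5% in saline mice, and the OVA mice lay -0.0573, 0.536 and 0.692 points from it. Between 5000 and 10000 bp downstream it was 58.9%, and the OVA mice lay 0.871, 1.66 and 1.79 points above. OVA replicate 1 was the closest of the OVA mice to the saline mean at every distance, and in the 500 bp before the start it lay inside the saline range.

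**Figure D1:**
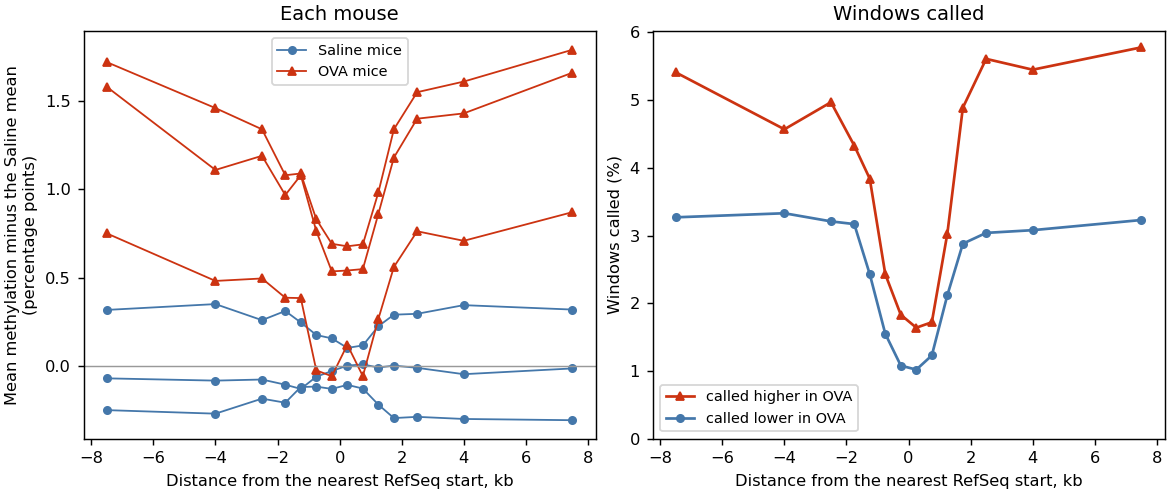
Mean methylation of windows by distance from the nearest RefSeq start (x axis, kb), as each mouse minus the saline mean in percentage points (left) and as the percentage of windows called higher or lower in OVA (right). OVA mice lay up to 1.79 points above the saline mean far from starts, and both kinds of call were rarest just downstream of the start, at 1.64% and 1.02% of windows. Window calls are those of the likelihood ratio test described below, and limma on the same windows called 0.

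At promoters, methylation rose in 132 genes and fell in 95 in OVA mice, which is 0.705% and 0.508% of the 18711 promoters tested. A call needed a limma adjusted p under 0.05 and 5 percentage points between the group means. The promoters that fell had a median level of 60.4% in saline lung. The promoters that rose had a median saline level of 24.5%, against 9.5% over all promoters. Of the promoters that fell 75 belonged to protein-coding genes, as did 87 of those that rose. These calls rested on all 6 mice: without any 1 mouse other than OVA replicate 1, no promoter passed in either direction, although 2961 to 3383 promoters kept an unadjusted p under 0.05. Without OVA replicate 1 the counts were 157 and 104.

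The largest fall among the named promoters was at Ncf1, which encodes a cytosolic subunit of the phagocyte NADPH oxidase. Its methylation was 72.9%, 68.9% and 66.6% in saline mice and 50.1%, 46.3% and 36% in OVA mice, a difference of -25.3 points (adjusted p = 0.0328). OVA replicate 3 was the lowest, and no OVA mouse reached the saline range. Lcp2, an adaptor of T cell receptor signalling, stood at 62.2%, 62.7% and 62.9% in saline mice and at 43.4%, 36.4% and 41.4% in OVA mice (-22.2 points, adjusted p = 0.0208). The saline mice lay within 1 point of each other. Prg3, a granule protein of eosinophils, the leukocytes that define allergic inflammation, fell from 71.6%, 68.2% and 64.7% to 49.1%, 43.5% and 46.5% (-21.8 points, adjusted p = 0.0268). The groups lay far apart, on 218 calls in the shallowest mouse, summed over 2 windows that can share calls.

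The named promoters that fell included regulators of the leukocyte cytoskeleton and of migration. Dock2, an exchange factor for Rac needed for lymphocyte migration, stood at 62.2%, 65.9% and 62% in saline mice and at 46.5%, 42.5% and 43.4% in OVA mice (-19.3 points, adjusted p = 0.0232). Parvg, the parvin of blood cells, was at 60.4%, 55.3% and 58.9% against 38.8%, 37.5% and 38.9% (-19.8 points, adjusted p = 0.0208), the OVA mice lying close together. Myo1g, a myosin of haematopoietic cells, fell from 58.2%, 58.7% and 61% to 43.1%, 36.9% and 42.2%. Fgd3, an exchange factor for Cdc42, fell from 66.4%, 68.4% and 62% to 48.1%, 46.8% and 45.3%. In all of these the groups were separated by more than 10 points. Bin2, a membrane-bending protein of leukocytes, differed by -21 points, and Tnfrsf26, a receptor of the tumour necrosis factor family, by -21.9. Spata48, whose single promoter window also holds a start of Zpbp, differed by -20.8.

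Named promoters that rose belonged to genes of varied functions. The largest difference among them was at Tmem204, a transmembrane protein, with 31.7%, 21.6% and 32% in saline mice and 48.1%, 51.7% and 51.1% in OVA mice (21.8 points, adjusted p = 0.0363). Saline replicate 2 was the lowest, and the OVA mice lay close together. Nradd, a death-domain protein related to neurotrophin receptors, rose from 21.3%, 18.1% and 21.9% to 38.1%, 38.9% and 36.5% (17.4 points, limma adjusted p = 0.0208). At least 4879 calls per mouse were summed there over 4 overlapping windows, so many calls count more than once. The complement system was represented by component C2, which rose by 18.6 points, and by Serping1, the inhibitor of the first complement component. Serping1 stood at 19.2%, 17.1% and 21.9% in saline mice and at 29%, 40.3% and 36.9% in OVA mice (16 points, adjusted p = 0.047). Here OVA replicate 1 was the closest to the saline mice.

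Palmd, a paralemmin-like protein, differed by 19.5 points and Pnpla5, a lipid hydrolase, by 17.6, each from a single window. Cend1, known for neuronal differentiation, differed by 16.7, Ston1, an endocytic adaptor, by 16.1, and Slc13a4, a sulfate transporter, by 16. Hoxaas3, a noncoding RNA antisense to Hoxa genes, differed by 16.6. Adjusted p-values of these 6 promoters lay between 0.025 and 0.0393.

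**Figure D2:**
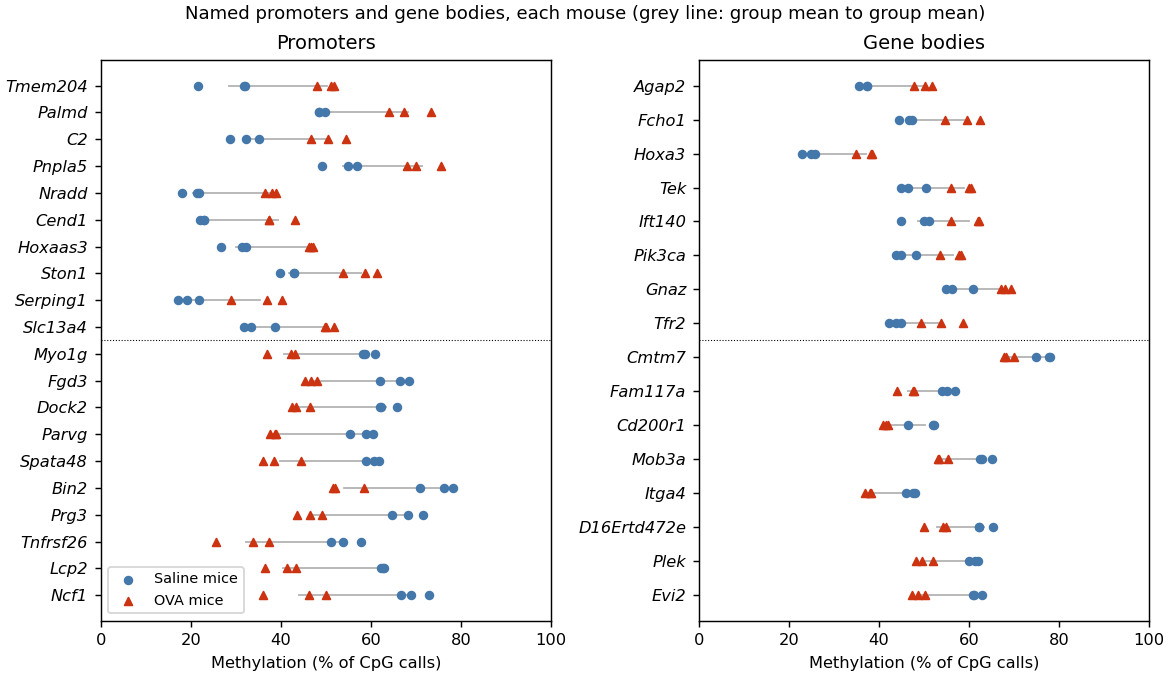
Methylation (x axis, percentage of CpG calls) of each mouse at the named promoters (left) and gene bodies (right), with saline mice as circles, OVA mice as triangles and a grey line between group means. Genes above the dotted line rose and those below it fell. The 3 OVA mice lie apart from the 3 saline mice at every gene, as the rule for naming required, with Ncf1 at 36% to 50.1% in OVA mice against 66.6% to 72.9%.

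Promoter sequences from RefSeq (GRCm38.p6) were read for the 250 bases before to 50 bases after the start. A sequence was matched for 66 of the promoters that fell, 94 of those that rose and 14286 of all tested. Both groups of promoters were poor in CpGs, with medians of 5 and 6 CpGs in 300 bases against 19 over all. The letters GAGGAAGT, a core of ETS and PU.1 motifs searched on both strands, stood in 13 of the 66 promoters that fell (19.7%), in 1 of the 94 that rose (1.06%), in 2.92% of all promoters and in 4.60% of the 3695 promoters with under 10 CpGs. PU.1 is an ETS factor of myeloid and B cells. TGACTCA of AP-1 stood in 15.2% of the promoters that fell and 7.45% of those that rose, against 3.77% of all and 6.87% of those with under 10 CpGs. GGAATGT of TEAD stood in 0 of the promoters that fell and 7 of those that rose (7.45%). Of all promoters 2.72% held it, and of those with under 10 CpGs 4.49%. TGTTTAC of FOX stood in 0 and 6 (6.38%), against 2.55% of all and 3.87% of those with under 10 CpGs. These shares are descriptions of the letters in a window and were not tested.

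Of the 13 promoters with GAGGAAGT, those of Parvg, Fgd3 and Cd53, a tetraspanin of leukocytes, are shown 5′ to 3′ on the gene's strand, with the matched letters or their reverse complement in capitals. They lie at chr15:84324470-84324769 (plus strand), chr13:49309159-49309458 (minus strand) and chr3:106790100-106790399 (minus strand), and hold 6, 7 and 4 CpGs.
Parvg: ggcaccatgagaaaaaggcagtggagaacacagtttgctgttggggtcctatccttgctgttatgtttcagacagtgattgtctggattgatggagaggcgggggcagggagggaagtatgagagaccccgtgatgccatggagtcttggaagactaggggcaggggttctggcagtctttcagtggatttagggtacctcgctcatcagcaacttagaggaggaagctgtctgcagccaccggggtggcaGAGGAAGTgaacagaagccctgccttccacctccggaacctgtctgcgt
Fgd3: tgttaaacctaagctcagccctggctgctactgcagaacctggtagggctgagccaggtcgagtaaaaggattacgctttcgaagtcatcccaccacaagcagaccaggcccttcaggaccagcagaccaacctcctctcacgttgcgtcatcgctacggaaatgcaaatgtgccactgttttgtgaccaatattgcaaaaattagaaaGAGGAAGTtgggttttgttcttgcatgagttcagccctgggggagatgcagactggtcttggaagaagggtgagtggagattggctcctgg
Cd53: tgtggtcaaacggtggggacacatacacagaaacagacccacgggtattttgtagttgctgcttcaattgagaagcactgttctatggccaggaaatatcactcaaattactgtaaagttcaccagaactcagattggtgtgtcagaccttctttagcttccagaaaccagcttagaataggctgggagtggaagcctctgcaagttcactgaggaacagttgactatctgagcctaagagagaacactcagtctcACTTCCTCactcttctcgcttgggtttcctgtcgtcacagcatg

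For contrast, the promoters of Nradd and Slc13a4, which rose, are shown with CpGs in capitals. They lie at chr9:110624344-110624643 and chr6:35308077-35308376, both on the minus strand. Nradd held 20 CpGs, about the number of a typical promoter, and Slc13a4 held 6.
Nradd: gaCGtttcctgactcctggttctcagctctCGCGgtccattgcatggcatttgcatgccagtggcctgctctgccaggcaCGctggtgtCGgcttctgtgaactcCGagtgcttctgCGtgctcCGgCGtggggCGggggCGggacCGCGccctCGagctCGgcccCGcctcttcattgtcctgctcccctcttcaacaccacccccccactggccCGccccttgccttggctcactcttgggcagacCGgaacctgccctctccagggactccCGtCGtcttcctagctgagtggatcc
Slc13a4: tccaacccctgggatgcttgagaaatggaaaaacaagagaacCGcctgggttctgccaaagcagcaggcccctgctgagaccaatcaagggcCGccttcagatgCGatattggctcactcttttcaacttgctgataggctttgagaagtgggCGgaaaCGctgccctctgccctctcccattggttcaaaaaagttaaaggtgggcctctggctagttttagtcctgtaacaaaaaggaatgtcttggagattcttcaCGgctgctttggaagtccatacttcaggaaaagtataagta

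Promoters of pan-leukocyte genes, which mark blood-derived cells of every kind, fell in OVA lung. Of 24 genes expressed across leukocytes, 22 had a promoter value, and 9 of them fell and none rose, against 0.508% and 0.705% of all promoters. In 16 of the 22 every OVA mouse lay below every saline mouse, against 10.9% of all promoters, and in 1, Lsp1, every OVA mouse lay above, against 16.0%. The median difference was -10.6 points, against 0.102 over all promoters. These shares compare unlike levels. The 22 had a median saline level of 46.1%, against 9.5% over all promoters. Of all promoters 68% stood under 20% in saline mice, with little room to fall, and only 7 of the 95 that fell did. The list was also chosen with earlier results of these data known. The mean level over the 22 promoters was 42% to 44.2% in saline mice and 32.4% to 36.4% in OVA mice. Ptprc, which encodes the leukocyte antigen CD45, stood at 65.7%, 59.8% and 65.8% in saline mice and at 49.3%, 45% and 46.6% in OVA mice (-16.8 points, adjusted p = 0.0316). Fermt3, which activates integrins in blood cells, differed by -16 points (adjusted p = 0.036) and Cd53 by -15.3 (adjusted p = 0.0417). The highest OVA value of Ptprc lay more than 10 points below the lowest saline value. The 9 called members are among the 95 promoters that fell, and the part of blood-derived cells in these calls was not tested.

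Lists of single leukocyte lineages had few calls. Of all promoters 10.9% lay without overlap below saline and 16.0% above, and 0.508% fell and 0.705% rose past the test. The counts of these lists are to be read against those shares. At an unadjusted limma p under 0.05 there were 3912 of all 18711 promoters and 4348 of all 14081 bodies. List counts at that threshold, here and below, are to be read against these. Listed genes without a value could not be tested. Of 16 neutrophil genes 4 had a promoter value. S100a8, S100a9, Elane and Ly6g were among those with neither a promoter nor a body value. In all 4 every OVA mouse lay below every saline mouse, with a median difference of -6.4 points and no limma call (3 at an unadjusted p under 0.05). Eosinophil genes had 11 promoters with a value and a median of -3.44 points. Of these 3 lay without overlap below saline and 2 above, and none passed limma's test (5 at an unadjusted p under 0.05). Prg3, described above, is not on this list. Its granule relative Prg2 is, and differed by -3.44 points with overlapping groups (adjusted p = 0.531). Also listed was Ccr3, the eotaxin receptor, read from as few as 56 calls. It stood at 82.3%, 77.3% and 84.1% in saline mice and 76.9%, 64.6% and 75% in OVA mice (adjusted p = 0.178). Il5ra, the receptor of the eosinophil growth factor interleukin 5 (adjusted p = 0.115), and Adora3 (-12.1 points, adjusted p = 0.0513) lay without overlap below saline too. The 2 above were Gata1 and F5, at 5.16 and 5.17 points (adjusted p = 0.222 and 0.173). Of 15 T cell promoters 2 fell. Cd27, a co-stimulatory receptor, fell by 15.4 points from 78.5%, 74.8% and 75.1%, and Cd4, read from as few as 30 calls, differed by -6.13 points. No promoter passed among 15 of macrophages and dendritic cells, 9 of B cells, 5 of mast cells and basophils and 2 of cytotoxic cells, with median differences of -1.18, -0.812, 0.553 and -0.911 points and 6, 3, 2 and 0 at an unadjusted limma p under 0.05.

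Promoters of endothelial and mesenchymal genes more often lay above saline than below it. Of 23 endothelial promoters 10 had every OVA mouse above every saline mouse and 0 below, against 16.0% and 10.9% of all promoters. Past limma's test 1 rose, against 0.705% of all promoters. That was Nos3, the endothelial nitric oxide synthase, at 41.8%, 43% and 43.9% in saline mice and 55.2%, 55.5% and 54.8% in OVA mice (12.3 points, adjusted p = 0.0268). The 3 OVA mice lay within 1 point of each other. Of 22 promoters of fibroblasts and smooth muscle 11 lay without overlap above and 1 below, with a median of 2.22 points and no limma call (11 at an unadjusted p under 0.05). Other lists shared this direction. Of 17 promoters of genes of other tissues 6 lay without overlap above and 0 below. Their median was 1.16 points, against 0.861 for the endothelial list. Of 22 epithelial regulators 6 lay above and 1 below, with a median of 0.634. Among these 22 Krt7, a keratin of simple epithelia, rose by 12.5 points (adjusted p = 0.0434). None of 10 promoters of alveolar type 2 cells, 11 of type 1 cells and 7 of airway cells passed limma, with 0, 2 and 0 at an unadjusted p under 0.05. The airway list holds 19 genes, and Muc5ac, Muc5b and Scgb1a1 had neither a promoter nor a body value.

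**Figure D3:**
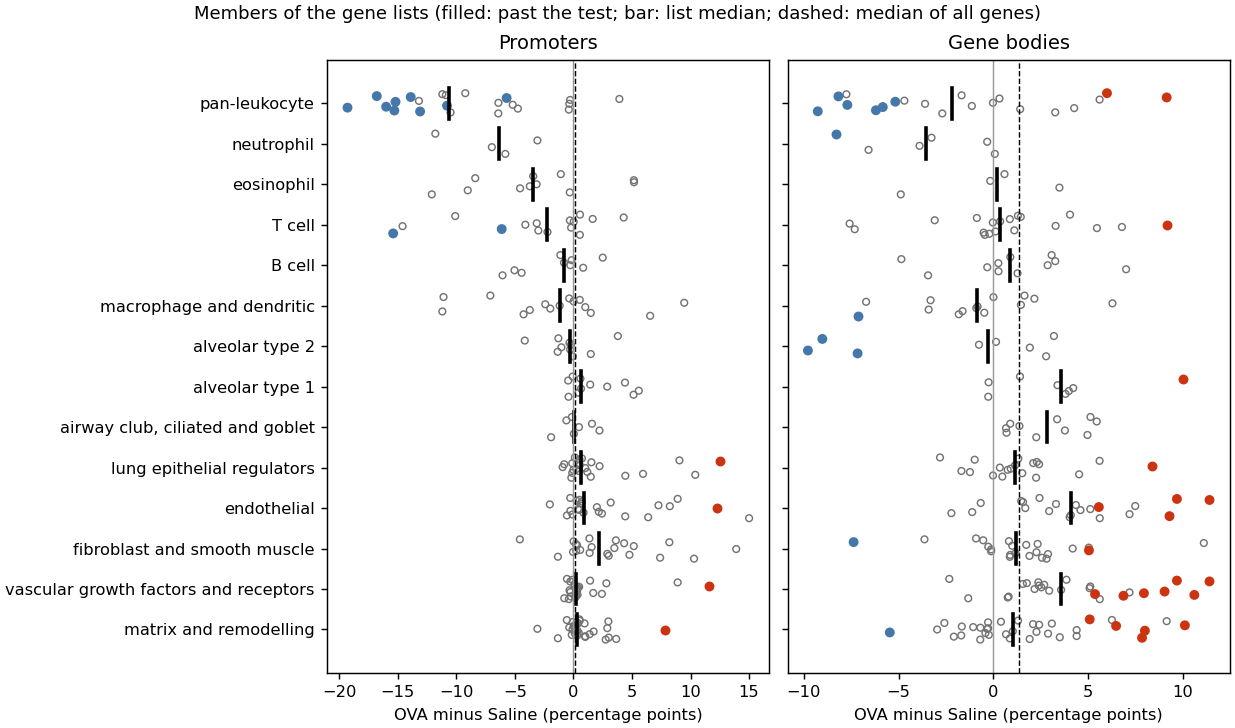
Difference of OVA minus saline methylation (x axis, percentage points) of each member of the gene lists at promoters (left) and gene bodies (right). Filled points passed the test, bars are list medians and the dashed line is the median of all genes (0.102 and 1.33 points). Pan-leukocyte promoters lie to the left, with a median of -10.6 points. Bodies of vascular, endothelial, alveolar type 1 and airway genes lie to the right, with medians of 3.57, 4.08, 3.59 and 2.81.

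Over gene bodies, methylation rose in 661 genes and fell in 246, which is 4.69% and 1.75% of the 14081 tested. The median difference was 1.33 points, and when each mouse was centred on its median the counts became 338 and 277, so that the share of calls that rose went from 72.9% to 55.0%. Without Saline replicate 1, Saline replicate 2 or OVA replicate 2 no body passed limma (3311 to 3724 at an unadjusted p under 0.05), without Saline replicate 3 18 rose and 21 fell, without OVA replicate 3 3 rose and 7 fell, and without OVA replicate 1 914 rose and 265 fell. Among the named bodies, which hold at least 10 windows, the largest rise was at Agap2, a GTPase-activating protein for Arf, with 37.4%, 35.5% and 37.4% in saline mice and 47.7%, 50.2% and 51.8% in OVA mice over 20 windows (13.2 points, adjusted p = 0.0269). Tek, the angiopoietin receptor of endothelium, rose from 50.5%, 45% and 46.5% to 55.9%, 59.9% and 60.5%. Pik3ca, the catalytic subunit of phosphoinositide 3-kinase, rose from 45%, 43.7% and 48.2% to 57.8%, 53.6% and 58.2%. All 3 genes were separated between the groups by over 5 points.

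Fcho1, an endocytic protein, differed by 12.8 points, Hoxa3, a patterning factor, by 12.7, and Tfr2, a transferrin receptor, by 10.3. Ift140, a component of intraflagellar transport, differed by 11.3, and Tmem204 lies inside it. Gnaz, a G protein alpha subunit that overlaps Rsph14, differed by 10.9. Their adjusted p-values lay between 0.0269 and 0.0439.

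The largest fall among the named bodies was at Evi2. This gene, which overlaps Evi2a, Evi2b and Nf1, stood at 60.9%, 62.8% and 61.2% in saline mice and at 50.3%, 47.3% and 48.6% in OVA mice (-12.9 points, adjusted p = 0.0263). Plek, a protein kinase C substrate of platelets and leukocytes, was at 62.1%, 61.3% and 60.1% against 52.1%, 48.3% and 49.5%. Itga4, the integrin alpha 4 chain that guides leukocytes to vessel walls, was at 48.1%, 47.5% and 46.1% against 38.2%, 38.1% and 36.8%. In each of the 3 the mice of a group lay within 4 points of each other. Cd200r1, an inhibitory receptor of myeloid cells, differed by -8.82 points, Cmtm7 by -8.29, Mob3a by -9.52, Fam117a by -8.81 and D16Ertd472e by -10.2, with adjusted p-values between 0.027 and 0.0331.

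Vascular genes were the function list with the largest share of bodies that rose. Of 25 bodies of vascular growth factors and receptors 7 rose and none fell, against 4.69% and 1.75% of all bodies, and in 15 every OVA mouse lay above every saline mouse, against 29.4%. The 7 were Tek, Tie1, Bmpr2, Ephb4, Efnb2, Bmp6 and Dll4, which include receptors and ligands of the angiopoietin, bone morphogenetic protein, ephrin and Notch pathways. Bmpr2 stood at 37%, 35.2% and 31.7% in saline mice and at 42.4%, 47% and 46.4% in OVA mice (10.6 points, adjusted p = 0.0297). Tie1 rose by 9.68 points and Ephb4 by 9.03. At the promoters of this list only Notch4 rose, from 17.3%, 18.5% and 16.1% to 25.5%, 31.3% and 30% (11.6 points, adjusted p = 0.0325). The endothelial list, which shares genes with it, had 4 of 21 bodies risen, Tek, Tie1, Egfl7 and Pecam1, and none fallen. Median differences were 3.57 points in the vascular and 4.08 in the endothelial list. Some epithelial lists were similar. Alveolar type 1 bodies had a median of 3.59, with 5 of 8 without overlap above saline, and airway bodies one of 2.81, with 6 of 10. None of either lay without overlap below. Bodies of epithelial regulators had a median of 1.14, near the 1.33 of all bodies.

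Pan-leukocyte bodies went both ways. Of 20 bodies 6 fell and 2, Nckap1l and Vav1, rose, against 1.75% and 4.69% of all bodies. In 10 every OVA mouse lay below every saline mouse and in 5 above, against 8.29% and 29.4% of all bodies. Nckap1l, a regulator of actin in blood cells, fell at its promoter by 13.9 points and rose over its body by 9.14 (adjusted p = 0.0458 and 0.027). Such opposite calls were found in 2 genes of the 12648 with both values, the other being Ccdc88b, whereas 13 genes rose and 8 fell at both. Ptprc fell over its body by 8.18 points as well. Bodies of the alveolar type 2 list included 3 that fell out of 8, against 1.75% of all bodies. Ctsh, a lysosomal protease, differed by -9.79 points, Sftpb, a surfactant protein, by -9.03 and Cd74, the invariant chain of antigen presentation that leukocytes also use and that is also on the macrophage list, by -7.17. The median of that list was -0.314 points, against 1.33 over all bodies. Among the bodies of other cell type lists, Icos (T cell), Gata2 (mast cell and basophil), Pdpn (alveolar type 1), Foxp2 (epithelial regulators) and Lmod1 (smooth muscle) rose by 9.14, 7.42, 10, 8.34 and 5.04 points. Prtn3 (neutrophil) and Tbx2 (fibroblast and smooth muscle) differed by -8.29 and -7.38 points and passed. The B cell, cytotoxic, eosinophil, airway and other-tissue lists had no body past limma's test. At an unadjusted p under 0.05 were 4 of 11, 1 of 4, 2 of 4, 4 of 10 and 7 of 19, against 4348 of all 14081 bodies.

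Il4, Il5, Il13, Gata3, Il1rl1 and Ifng, given whatever their values, did not pass the test. Il4 promoter methylation was 64.3%, 64.3% and 61.3% in saline mice and 61.3%, 64.6% and 63.3% in OVA mice (adjusted p = 0.951). The promoter of Gata3, the regulator of Th2 differentiation, stood near 1% in all mice (adjusted p = 0.917). Il5 differed by 1.53 points (adjusted p = 0.521) and the body of Il13, which had no promoter value, by 0.0726 (adjusted p = 0.984). Il1rl1, the interleukin 33 receptor, lay without overlap below saline, at 67.2%, 63.1% and 64.5% against 69.2%, 68% and 70%, and did not pass (adjusted p = 0.203). The Ifng promoter, of the Th1 cytokine, differed by -9.54 points with overlapping groups (adjusted p = 0.274).

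Counts of the T helper lists are to be read against all genes, of which 0.508% of promoters fell and 4.69% of bodies rose. At an unadjusted limma p under 0.05 there were 3912 of all 18711 promoters and 4348 of all 14081 bodies. Of 19 Th2 promoters 1 fell. It was Csf2, the granulocyte-macrophage colony-stimulating factor, at 42.7%, 42.2% and 41.5% in saline mice and 33.6%, 34.1% and 34.7% in OVA mice (-8.02 points, adjusted p = 0.045). Of 15 Th2 bodies Stat6, which carries interleukin 4 signals, rose by 6.65 points (adjusted p = 0.0464). The Th1 list had no promoter of 17 past limma's test (6 at an unadjusted p under 0.05) and 3 bodies of 13 that rose, Hlx by 10.8 points, Runx3 by 6.68 and Il12rb2 by 5.6. Of the Th17 and regulatory T list, 0 of 8 bodies passed limma (1 at an unadjusted p under 0.05).

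Of the other function lists, matrix and remodelling had 1 of 31 promoters risen, Mmp14, a membrane-bound matrix metalloproteinase, which went from 7.99%, 6.86% and 7.4% to 13.7%, 15.6% and 16.4% (7.78 points, adjusted p = 0.025). Over all genes 0.705% of promoters rose. Of the 35 bodies of this list 5 rose and 1 fell. Body counts here and in the lists that follow are to be read against 4.69% and 1.75% of all bodies. Counts at an unadjusted p under 0.05 are to be read against 3912 of all 18711 promoters and 4348 of all 14081 bodies. Smad7, an inhibitor of transforming growth factor beta signals, rose by 10.1 points, and Col4a1, a basement membrane collagen, by 7.84. Of 57 chemokines and receptors listed, 22 had a promoter value and 18 a body value. Ccl11, Ccl24, Ccl17, Ccl22, Ccr4 and Ccr8 were among those with neither. limma called 0 of the 22 promoters (5 at an unadjusted p under 0.05) and 3 of the 18 bodies, Ccl9 at -16.7 points, Xcr1 at -6.54 and Ccl1 at 5.67. The JAK-STAT list had 2 of 18 bodies risen, Jak3 by 7.73 points and Stat6. The list of NF-kappaB and innate receptors had 1 of 19 bodies fallen, Nfkbie, an inhibitor of NF-kappaB, at -7.26. These last lists had 0 of 21 and 0 of 28 promoters past limma, with 5 each at an unadjusted p under 0.05. Of the DNA methylation machinery 0 of 18 promoters and 0 of 16 bodies passed limma (2 and 3 at an unadjusted p under 0.05), with medians of -0.0184 and 0.862 points.

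The Hoxa cluster on chromosome 6, whose genes pattern the body axis and the lung, held a stretch of neighbouring windows that rose. Hoxa5, which is needed for lung development, rose at its promoter from 27%, 23.5% and 25.5% to 40.4%, 40.2% and 42.9% (15.8 points, adjusted p = 0.0238) and over its body from 18.5%, 19% and 19.8% to 33.8%, 39.9% and 39%. Hoxa2 rose by 9.53 points at the promoter and 17.9 over the body. Single windows were called here by the likelihood ratio test described below, which takes calls as independent, and limma called 0 windows in either direction. The 44 windows from -4000 to 30000 bp of the Hoxa5 start, counted along its direction of transcription, had a median difference of 14.7 points. Of them 36 were called higher and 0 lower, against 4.82% and 2.59% of all windows. In the 46 windows from -30000 to -4500 bp, towards Hoxa9, 1 was called higher and 2 lower. The boundary was set after the values were seen, windows of a region are not independent, and the body of Hoxa3 spans several neighbouring genes. Of the other clusters, Hoxb, Hoxc and Hoxd had 0 of 10, 0 of 9 and 0 of 8 promoters past limma and 2 of 9, 0 of 3 and 1 of 5 bodies risen, against 2 of 11 promoters and 4 of 8 bodies in Hoxa. Median promoter differences were 0.629, 1.12 and 1.02 points, against 0.521 in Hoxa. Of all genes, 0.705% of promoters and 4.69% of bodies rose. Every OVA mouse lay above every saline mouse at 4, 5 and 3 of these promoters and at 5 in Hoxa, against 16.0% of all promoters. The clusters were not tested against each other.

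**Figure D4:**
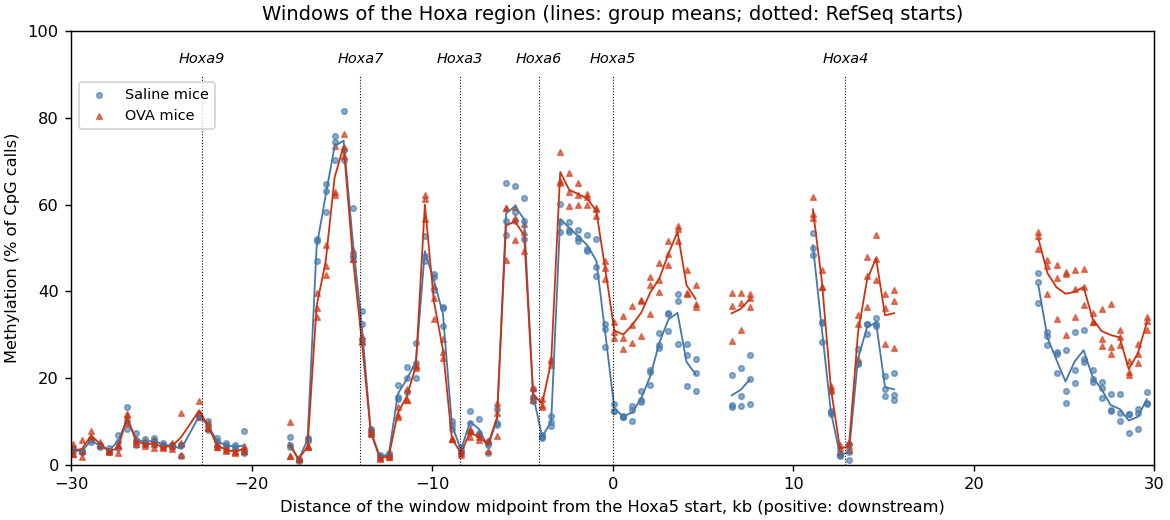
Methylation (y axis, percentage of CpG calls) of each mouse in windows of the Hoxa region by distance from the Hoxa5 start (x axis, kb), with lines at the group means and dotted lines at the most upstream RefSeq start of each gene. OVA mice lie above saline mice through most of the stretch downstream of Hoxa6, with a median difference of 14.7 points over 44 windows, and close to them upstream.

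Windows were also tested one by one with a likelihood ratio test of a logistic model, which takes calls as independent, at the study's thresholds. It called 20444 windows higher and 11004 lower in OVA, 4.82% and 2.59% of the 424174 tested, at an adjusted p under 0.01 and 10 points. limma on the same windows, which uses the spread between mice, called 0 at an adjusted p under 0.05, with 83220 at an unadjusted p under 0.05. Windows called higher had a median saline level of 39.6% and windows called lower one of 66.3%, against 56.8% over all. Only 5.87% and 6.99% of them lay within 1000 bp of a start, against 15.2% of all windows. Introns held 50.2% and 49.2%, against 40.7%. In windows with at least 40 CpGs, where saline methylation had a median of 1.99%, 0.625% were called higher and 0.157% lower.

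The letters of some motifs were unequally frequent in these windows. Those of RUNX factors (TGTGGTT) stood in 34.8% of the windows called lower, 19.3% of those called higher and 21.5% of all. GAGGAAGT stood in 17.5%, 5.62% and 7.39%. TGTTTAC of FOX factors, which include regulators of lung epithelium and mesenchyme, went the other way, with 10.6% of the windows called lower, 19.6% of those called higher and 13.1% of all. GGAATGT of TEAD factors stood in 11.6%, 17.4% and 13.3%. The shares of the STAT letters TTCCNGGAA were close, at 3.39%, 3.84% and 3.36%, as were those of GGGACTTTC of NF-kappaB, at 0.963%, 0.934% and 1.01%. Windows overlap by 500 bp, and a match is a run of letters, not a bound site.

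**Figure D5:**
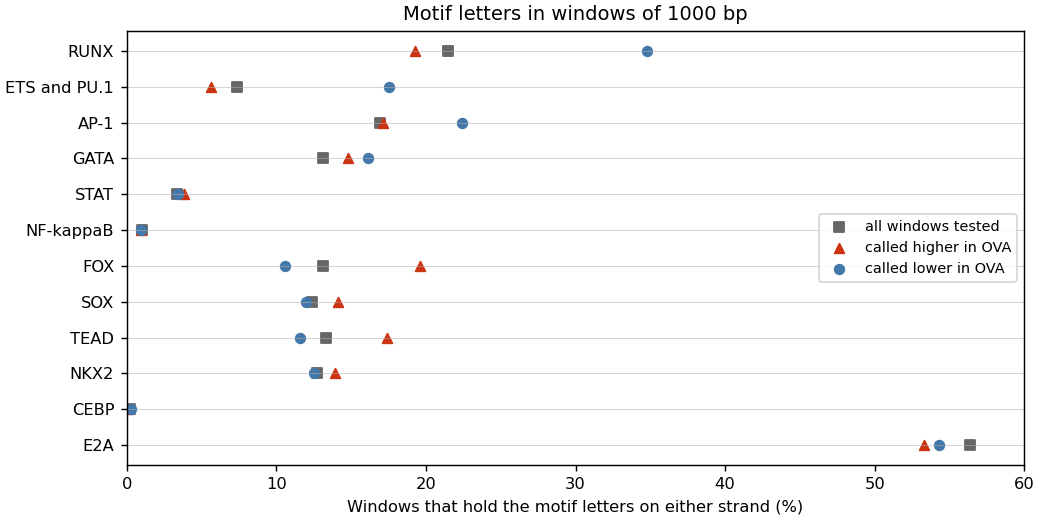
Percentage of windows (x axis) that hold the letters of each motif on either strand, among all windows tested (squares), those called higher (triangles) and those called lower in OVA (circles). RUNX and ETS letters stood in 34.8% and 17.5% of the windows called lower, against 21.5% and 7.39% of all, and FOX and TEAD letters in 19.6% and 17.4% of those called higher, against 13.1% and 13.3%.

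The largest window differences with at least 50 calls in every mouse were mostly far from starts. A window at -12336 bp from the start of Cd44, which encodes a receptor for hyaluronan on leukocytes and other cells, lay at chr2:102913501-102914500 and fell from 55%, 67.8% and 64.9% to 31%, 19.7% and 32.3%. Of a pair of overlapping windows at the start of Cdkl4, a kinase gene, the one at chr17:80564001-80565000 fell from 77.1%, 86.5% and 72.4% to 54%, 38.7% and 36.5%. Others that fell lay in an intron of Chn2 and 5316 bp downstream of the start of the histone gene H3c14. The largest rise, of 36 points, lay at -15330 bp from the start of Grsf1, at chr5:88691001-88692000, with 30%, 16.7% and 29.7% against 68%, 55.4% and 63.5%, read from as few as 50 calls. A window in Gm11696, at -4294 bp from the start of Gna13, a G protein subunit, rose from 15.9%, 19.6% and 12.2% to 49.5%, 48.6% and 40.8%. Windows in Rps6ka1, with 181 coding bases, and in Rnf43, rose by 31.9 and 31.7 points. A window 16396 bp downstream of the Trmt61a start rose by 31.3. limma called none of these windows.

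In the 4 Herb mice, given side by side and not tested, methylation varied at the named promoters. Lcp2 ranged from 37.6% to 53.3%, Dock2 from 41.2% to 50.6% and Prg3 from 43.4% to 64.3%. Nradd ranged from 33.2% to 39.1%, Tmem204 from 32.9% to 57.8% and Serping1 from 28.6% to 43.2%. Spata48 stood at 54.7%, 50.9%, 57.5% and 54.8%, nearer in all 4 mice to the saline mean of 60.5% than to the OVA mean of 39.7%. These 7 promoters are examples chosen after their values were seen.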

How the data were processed

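Lung genomic DNA of the mice was profiled by SureSelect Methyl-seq. The authors used Cutadapt for trimming, Bismark for mapping to mm10 (GRCm38) and methylKit for summing CpG calls in windows of 1000 bp; the submitters' processing notes list versions 1.10, 0.19.0 and 1.0.0, which differ from those in the methods. The deposited values are counts of methylated and unmethylated CpG calls per window and mouse, without normalization, and duplicates, conversion rate and scaling are not given in the sources used here. Calls from 1 molecule are not independent, and window depth sets how precise a percentage is. Here, percentages were averaged over a gene's windows, transformed to log2((percent + 1)/(101 - percent)) and compared between 3 OVA and 3 Saline mice with limma 3.58.1 (R 4.3.3), with Benjamini-Hochberg adjustment over all promoters or bodies. Windows were compared by a likelihood ratio test of pooled calls. Tests were checked on simulated promoters and windows. The simulated windows held no spread between mice of a group, so they could not show how often the likelihood ratio test calls such spread. Starts and exons came from RefSeq on GRCm38.p6.

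Members and lists were chosen with earlier results of these data known. Named promoters were the 10 with the largest difference in each direction, among calls without overlap and with at least 100 calls per mouse; bodies likewise 8, with at least 10 windows; windows likewise 5, with at least 50 calls; lists up to 4 called members; and fixed genes of Th2 responses. Genes named by Gm, LOC, Mir, Snor, Rik or a leading number were counted only. Alternatives were other call minimums, pseudocounts, scalings, tests, promoter limits and thresholds, a replicate block and each mouse left out. A promoter result of the Th17 and regulatory T list is not reported here.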

Additional observations from a re-analysis of the deposited data

How the results depend on the processing

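All 79 named called differences kept their sign under every alternative, and so did the 95 recomputed list medians. For the 79 differences this was mostly fixed in advance. Every called gene had no overlap between the groups, so leaving out 1 mouse could not reverse a sign. Centring, pseudocounts, the block and other thresholds left the difference in percentages unchanged. Under the alternatives that neither left out a mouse nor added a block, 711 of 796 values stayed past the test. With a mouse left out, only 75 of 474 did. Leaving out 1 mouse gave 0 to 157 promoters higher and 0 to 104 lower, 0 to 914 bodies higher and 0 to 265 lower, 17716 to 26735 windows higher and 10104 to 12811 lower, and a mean window difference of 1.04 to 1.49 points; fewer mice leave fewer degrees of freedom. Promoter counts, higher and lower, were 223 and 148 with a minimum of 50 calls, 231 and 159 with pooled calls, 200 and 145 with limma on percentages, 227 and 155 with a pseudocount of 5, 47 and 26 from 2000 bp before to 500 bp after the start, 80 higher at 10 points, and 809 and 430 by likelihood ratio test. Body counts were 1042 and 441 with pooled calls, 338 higher after centring, 97 and 55 at 10 points, and 1069 and 384 by likelihood ratio test. The cause was not tested. Window counts were 1248 and 790 at 20 points, 10222 and 5498 without overlap (fewer windows tested), and 0 and 0 by the F test with a scale factor (65234 at an unadjusted p under 0.05) and by limma at either threshold.

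Same-numbered mice did not visibly deviate together (correlations -0.0438 to 0.0672). This cannot show whether they were housed or processed together, which the labels do not state. The replicate block gave 0 promoters in either direction (3570 at an unadjusted p under 0.05), 0 bodies higher and 1 lower, 0 windows by limma, and p = 0.25 by sign flips for the mean window difference, an exact test whose smallest p this is. The number of mice and windows with few calls limit what could pass.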

Other observations

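Promoters outside the rule for naming, chosen here after their values were seen, included further genes of immune signalling among those that fell. Mir142, the gene of a microRNA of blood cells, stood at 66.9%, 70.8% and 62.6% in saline mice and at 54.4%, 45.4% and 43.6% in OVA mice (-19 points, limma adjusted p = 0.0498). The promoter of Evi2b fell from 58.1%, 61% and 60.5% to 45.2%, 45.2% and 46.5%. Tnip3, an inhibitor of NF-kappaB signalling, fell from 73.2%, 75.2% and 71.8% to 63%, 60.8% and 60%. Hoxa2 rose from 8.01%, 7.19% and 7.39% to 15.1%, 17.5% and 18.7%.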
